A study of Mus musculus with 8 samples.

Results

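Arterial endothelial cells (aEC) were compared with venous endothelial cells (vEC) taken from the same wildtype (WT) mouse embryos at E10.5. The cells came from the aorta-gonad-mesonephros (AGM) region, the tissue block around the dorsal aorta in which blood stem cells arise from endothelium. Cell identity was that of the deposited annotation. The cells annotated aEC formed one side, and those annotated vEC_1, vEC_2, vEC_3 or vEC_4 were pooled as the other side. This gave 6292 of the 15168 cells of the series, and of the 8423 WT cells, with 888 aEC and 5404 vEC. The pooled side held 1599 vEC_1, 1562 vEC_2, 1428 vEC_3 and 815 vEC_4 cells. The 5 WT libraries held 150, 153, 51, 319 and 215 aEC beside 910, 845, 480, 1819 and 1350 vEC.

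Each library was made from CD31+ cells sorted from the AGM of 2 to 5 pooled embryos of 1 genotype, so the replicate was a pool and not an embryo. The labels give the strain of the WT libraries as C57BL/6, and the study's text also uses WT for littermates without Cre. A further 3 libraries, labelled Meis1-flox/VE-Cre and Meis1-knockout, were used for a single comparison at the end. In these embryos an exon of Meis1 lies between loxP sites, and Cre is driven by the promoter of Cdh5 (VE-cadherin), so deletion is confined to cells in which that promoter has been active. Single-cell RNA was read together with antibody tags (CITE-seq). The study follows blood-forming endothelium out of aEC, and the comparison made here asks how aEC differ from the other endothelium of the same sort.

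As background, arterial and venous identity are set in endothelium by opposed programmes. In arteries, VEGF signalling, the SoxF transcription factors and the Notch ligand Dll4 keep a set of genes on that includes Hey1, Hey2, Efnb2 and the connexins Gja4 and Gja5. In veins the nuclear receptor Nr2f2 (COUP-TFII) holds this programme down, and Ephb4, the receptor of ephrin-B2, and Nrp2, a co-receptor for VEGF-C, are present. Some venous cells of the cardinal vein turn on Prox1 at this age and become lymphatic endothelium.

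Total unique molecular identifiers (UMIs, counted RNA molecules) ranged from 20484881 to 79429129 over the WT libraries. Median UMIs per cell were 20189 to 21911 in aEC and 25630.5 to 28200 in vEC of WT 1 to 4, and 9705 and 11915 in WT 5, so aEC were shallower in 5 of 5 libraries. The mitochondrial share was 2.58% to 3.62% in aEC and 2.50% to 3.26% in vEC. Both sides carried the defining markers of endothelium. The summed level of 12 pan-endothelial genes was 4323 to 4841 counts per 1000000 UMIs (CPM) in aEC and 3717 to 4170 in vEC. Summed levels of markers of other cells were low on both sides: 7.31 to 22.9 CPM in aEC against 6.16 to 22.0 in vEC for 14 macrophage and granulocyte genes, 14.4 to 37.7 against 9.67 to 32.3 for 7 megakaryocyte genes, and 5.49 to 15.8 against 14.6 to 20.1 for 14 mesenchymal and mural genes. The 8 epithelial genes summed to 0.450 to 2.37 CPM in aEC and 1.79 to 5.11 in vEC, and none was tested. Of these lists' tested members, 0 of 4 macrophage genes, 2 of 2 megakaryocyte genes (Itga2b higher, Pf4 lower) and 3 of 3 mesenchymal genes (Tagln higher, Twist1 and Col3a1 lower) were called. Of the 12 erythroid genes, 7 were tested and 2 were called higher in aEC, the carbonic anhydrase Car2 and the embryonic globin Hbb-y, with sums over the list of 135 to 292 CPM against 61.4 to 196. Hbb-y averaged 53.0 CPM in aEC and 40.5 in vEC, and its part in any result was not tested. A doublet caller marked 118 cells of the series, of which 2 were among these aEC and vEC, and 33 of 15135 distinct barcodes occurred in more than 1 library.

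A large part of the transcriptome differed between the sides. Raw UMI counts were summed per library and side and tested with edgeR's quasi-likelihood F test, the library as a block, with a Benjamini-Hochberg adjusted p under 0.1 as the threshold. Of 11345 genes tested, 6771 (59.7%) passed, 3309 (29.2%) higher and 3462 (30.5%) lower in aEC. A change of at least 2-fold was added for 1102 genes (9.71%), 587 (5.17%) higher and 515 (4.54%) lower. The values of aEC and vEC did not overlap over the 5 libraries for 2956 genes (26.1%). These shares are the background against which the members of each gene list below are read. Because the clusters had been drawn by the authors on the same RNA counts, a call here says that a difference held across libraries, and it is no independent test that the clusters differ. Log2 fold changes are aEC over vEC, with the standard error (SE) and the adjusted p, and the median over all genes tested was -0.01.

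**Figure D1:**
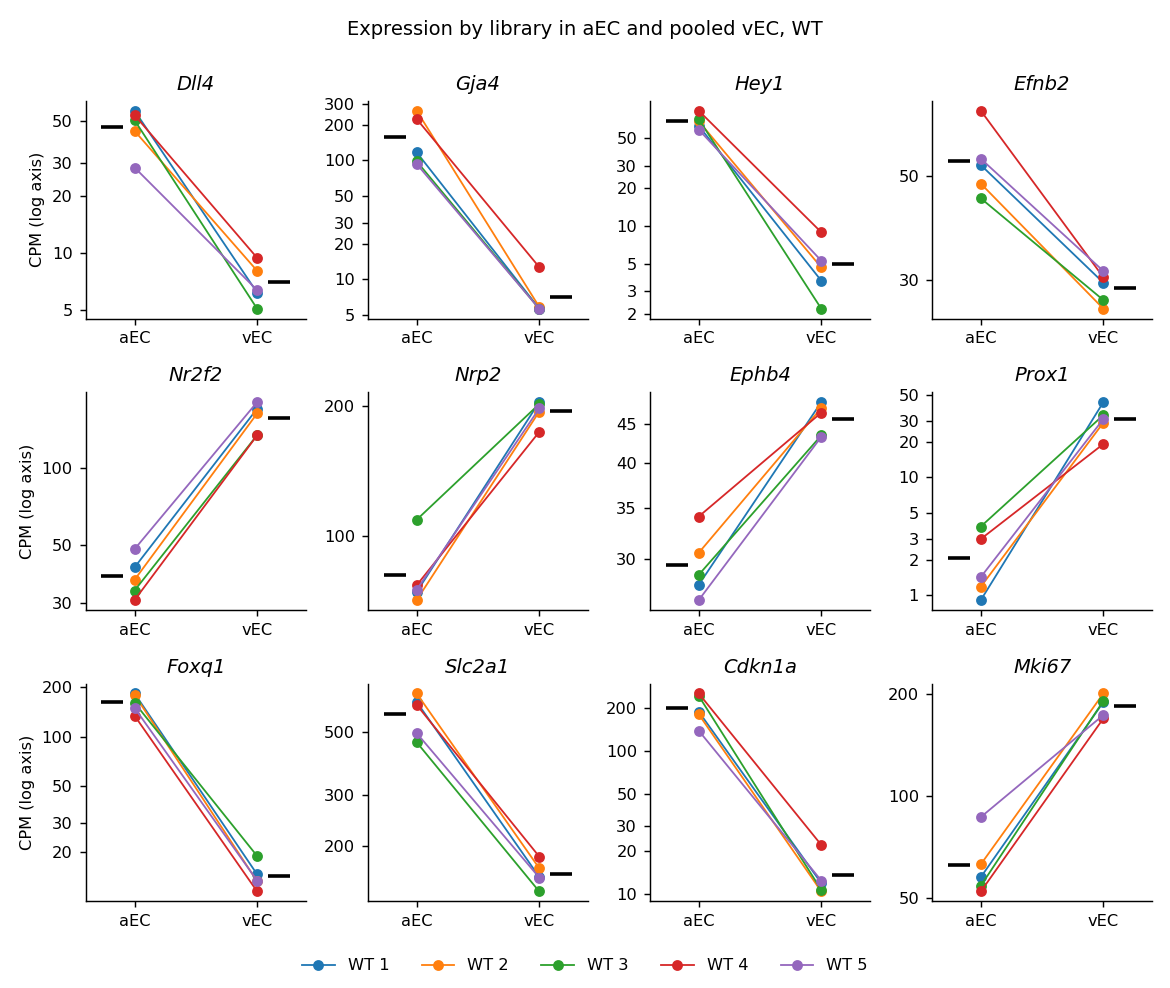
Expression of 12 genes in aEC and pooled vEC. The vertical axis gives normalized CPM on a log axis, each colour is 1 of the 5 WT libraries, lines join the sides of a library and black bars are means. The sides do not overlap in any of the 12 panels: Dll4, Gja4, Hey1, Efnb2, Foxq1, Slc2a1 and Cdkn1a lie higher in aEC, and Nr2f2, Nrp2, Ephb4, Prox1 and Mki67 lie lower.

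The arterial genes that the study used to score its cells were higher in aEC. Of its 9 arterial genes 8 were tested, and all 8 were called higher, 5 of them at least 2-fold, with a median log2 fold change of 1.17. The study chose this list to describe these clusters, so the count is not independent evidence of their identity. Dll4 (chr2:119325784-119335666, GRCm38), the Notch ligand of arterial cells, was at 56.8, 44.4, 50.6, 53.9 and 28.5 CPM in aEC of WT 1 to 5 and at 6.20, 8.09, 5.10, 9.47 and 6.39 CPM in vEC. The lowest aEC library thus lay above every vEC library, and the log2 fold change was 2.68 (SE 0.12, adjusted p = 2.25e-15). Jag1, a second Notch ligand, followed with 1.89 (SE 0.09). The hypoxia-responsive factor Epas1 had a log2 fold change of 1.34 (SE 0.08) and the receptor Notch4 of 1.29 (SE 0.10). Efnb2, which encodes ephrin-B2, was at 44.9 to 69.1 CPM in aEC and 26.0 to 31.4 in vEC (0.94, SE 0.08), a smaller step than for Dll4 but with no overlap. Nrp1, the co-receptor for VEGF-A, rose by 0.79 (SE 0.05) on the same scale.

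Notch1 and Vegfc were the weakest members of that list. Notch1 was at 80.4, 57.7, 66.8, 77.5 and 70.7 CPM in aEC and 66.7, 59.2, 49.3, 56.2 and 69.3 in vEC, so the sides overlapped and WT 2 went the other way (0.24, SE 0.07, adjusted p = 0.00795). Without the library as a block the call was lost (adjusted p = 0.105). Vegfc, a growth factor for lymphatic and venous vessels, was at 25.7 CPM in aEC of WT 4 but 6.68 to 12.4 in the others, against 6.74 to 7.96 in vEC (1.04, SE 0.17). Gja5, the connexin 40 gene, was too sparse to be tested, with 48 UMIs over all aEC and 65 over all vEC. Its level was 0.298, 3.47, 0, 4.29 and 2.74 CPM in aEC and 0.557, 0.0852, 0.947, 0.427 and 0.774 in vEC, which is higher in aEC in 3 of 5 libraries.

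Most tested genes of a list of 19 other arterial genes were also higher in aEC. Of 12 tested, 10 were called higher, 9 of them at least 2-fold, and 1, Tm4sf1, lower (-1.02, SE 0.17), with a median of 1.95. Gja4 (chr4:127311420-127314039), which encodes connexin 37, was at 117, 262, 98.3, 223 and 93.4 CPM in aEC and at 5.69, 5.89, 5.68, 12.7 and 5.68 in vEC. Every aEC library exceeded every vEC library by a wide margin, while the aEC libraries themselves spread more than 2-fold (4.45, SE 0.13, adjusted p = 6.79e-19). Cxcr4, the chemokine receptor of arterial and tip cells, was at 10.6 to 28.6 CPM against 0.254 to 0.683 (5.33, SE 0.21). Hey1 was at 58.3 to 82.6 CPM against 2.19 to 8.88 (3.70, SE 0.14), and the secreted guidance cue Sema3g at 18.2 to 27.2 against 2.98 to 4.28 (2.70, SE 0.12). Endothelin 1 (Edn1), made by many endothelia, was 17.5, 30.3, 25.8, 80.6 and 34.6 CPM in aEC and 34.8, 30.2, 28.3, 79.2 and 31.3 in vEC. Apart from WT 1 the sides of Edn1 were close in each library, and the gene was not called (-0.14, SE 0.10, adjusted p = 0.285).

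Notch signalling works between neighbouring cells: a ligand on 1 cell cuts loose the intracellular part of the receptor on the next, and this joins the DNA-binding factor RBPJ at genes such as those of the Hey and Hes families. Of 29 genes of the pathway 25 were tested, and 17 were called higher in aEC (9 of them at least 2-fold), 5 lower and 3 not at all, with a median of 0.63. Among targets, Hey2 was at 7.25, 2.65, 3.82, 5.98 and 3.32 CPM in aEC and at 0.157, 0.169, 0.0728, 0.369 and 0.296 in vEC, with no overlap (4.28, SE 0.31). Hes1 was higher in 5 of 5 libraries (1.22, SE 0.06), and so was Nrarp, a feedback inhibitor of the pathway (0.90, SE 0.09). Lfng, the fringe enzyme that adds sugar to Notch receptors and shifts their choice of ligand, was at 17.2 to 23.9 CPM in aEC and 4.32 to 6.63 in vEC (1.82, SE 0.13). Ligands did not move together. Dll1 was at 0.955 to 3.32 CPM in aEC against 7.45 to 11.5 in vEC (-2.04, SE 0.20), opposite in direction to Dll4 and Jag1. The naming rule did not reach Hes1, Nrarp and Lfng, which were picked with their values in view, as were Tm4sf1, Pf4, Tagln and Hbb-y above and Sox7, Mecom, Apln, Vwf, Aplnr, Emcn, Runx1 and Gfi1 in what follows.

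The promoters of Hey2 and Lfng are shown because both genes differed between the sides with no overlap and both hold the core sequence recognised by RBPJ. The sequences are the 250 bases before the annotated start, from RefSeq on GRCm38.p6 and read 5′ to 3′ on the strand of the gene, at chr10:30842784-30843033 (minus strand) for Hey2 and chr5:140607091-140607340 (plus strand) for Lfng. Capitals mark TGGGAA or, on the opposite strand, TTCCCA.
Hey2: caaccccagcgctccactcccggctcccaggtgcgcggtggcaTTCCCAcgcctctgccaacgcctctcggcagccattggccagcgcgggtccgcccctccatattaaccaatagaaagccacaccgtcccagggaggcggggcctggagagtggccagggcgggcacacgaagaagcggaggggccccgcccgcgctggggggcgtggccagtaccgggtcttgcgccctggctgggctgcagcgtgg
Lfng: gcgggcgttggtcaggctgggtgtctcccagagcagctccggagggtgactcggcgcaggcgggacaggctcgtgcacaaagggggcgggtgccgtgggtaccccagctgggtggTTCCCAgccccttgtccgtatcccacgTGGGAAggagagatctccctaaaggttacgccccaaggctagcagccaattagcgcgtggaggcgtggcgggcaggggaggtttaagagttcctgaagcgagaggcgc
The Hey2 match lies 207 to 202 bases before the start. Lfng has matches at 135 to 130 and at 108 to 103 bases before the start, on opposite strands. The 6 letters occur on either strand in 7094 of 32851 promoters of this length (21.6%), and in 6510 of 27025 genes (24.1%). Of the 13 Notch pathway genes higher in aEC that had a promoter in the table, 3 (23.1%) held the letters, so the share was near that of all genes. Dll4 and Nrarp held none. A match is a description of the letters and not a bound site.

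Transcription factors of the SoxF, Fox, Klf and ETS families split evenly. All 30 on the list were tested, with 9 called higher, 9 lower and a median of -0.02. Sox17, a SoxF factor of arteries, was at 182 to 241 CPM in aEC and 79.5 to 97.9 in vEC (1.38, SE 0.05), and Sox7 moved the same way (1.13, SE 0.07). Foxq1 (chr13:31558170-31560976) and Foxf2, which belong to the forkhead factors of brain vessels, had log2 fold changes of 3.53 (SE 0.07) and 3.37 (SE 0.11). Sox9, better known from cartilage and from cells that change from endothelium to mesenchyme, was at 15.6 to 85.3 CPM in aEC and 0.437 to 7.14 in vEC (4.13, SE 0.23). The highest vEC value of Sox9 came from WT 4, and without that library the log2 fold change was 4.87. On the lower side stood Foxc2, a factor of lymphatic valves, at 0.604 to 1.90 CPM against 17.0 to 22.1 (-3.73, SE 0.19), and Lyl1, a blood and endothelial factor (-1.32, SE 0.08). Etv2, the early inducer of endothelium, had 7 UMIs over all aEC and a log2 fold change of -2.64 (SE 0.41). Klf2, the best known factor induced by blood flow, was abundant on both sides at 273 to 392 and 296 to 364 CPM and was not called (0.03, SE 0.05, adjusted p = 0.635). Against single clusters, however, Klf2 was called higher than vEC_1 (0.38) and vEC_2 (0.29) and lower than vEC_3 (-0.21) and vEC_4 (-0.47). Mecom, a zinc finger factor of arterial endothelium and blood stem cells, was at 39.1 to 64.8 CPM against 17.4 to 31.7 (1.21, SE 0.09).

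Venous and lymphatic genes were lower in aEC. The 3 venous genes of the study's score were all called lower, with a median of -1.30. Nr2f2 (chr7:70351946-70366746) was at 41.1, 36.8, 33.4, 30.7 and 48.4 CPM in aEC and 170, 163, 134, 134 and 180 in vEC (-2.06, SE 0.06, adjusted p = 1.18e-18). Nrp2 was at 70.9 to 109 against 174 to 204 (-1.30, SE 0.06), and Ephb4 at 26.6 to 34.1 against 43.3 to 48.1 (-0.61, SE 0.08). None of these overlapped, yet none was near 0 in aEC. Of 17 other venous and lymphatic genes 15 were tested, with 12 called lower, 8 of them at least 2-fold, 1 higher and a median of -1.45. The lymphatic receptor Lyve1 had 6 UMIs over all aEC and was at 10.3 to 20.5 CPM in vEC (-5.18, SE 0.27). Prox1, the factor that commits cells to the lymphatic fate, was at 0.907 to 3.82 CPM against 19.2 to 43.5 (-3.79, SE 0.21, and -4.59 without WT 4). The transcription factor Maf had a value of -3.37 (SE 0.23), and Stab2, a scavenger receptor of venous sinusoids, of -3.29 (SE 0.27). The 1 member called higher was Vwf, the clotting factor carrier, at 19.3, 19.7, 14.3, 51.0 and 9.01 CPM in aEC against 16.3, 11.1, 13.4, 21.0 and 14.4 in vEC (0.70, SE 0.16). The sides of Vwf overlapped, and without WT 4 it was no longer called (adjusted p = 0.160). Aplnr (-0.30, SE 0.06) and Emcn (-0.12, SE 0.04), which are counted among venous markers, were called lower by small amounts and stayed high in aEC, at 134 to 254 and 666 to 729 CPM.

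**Figure D2:**
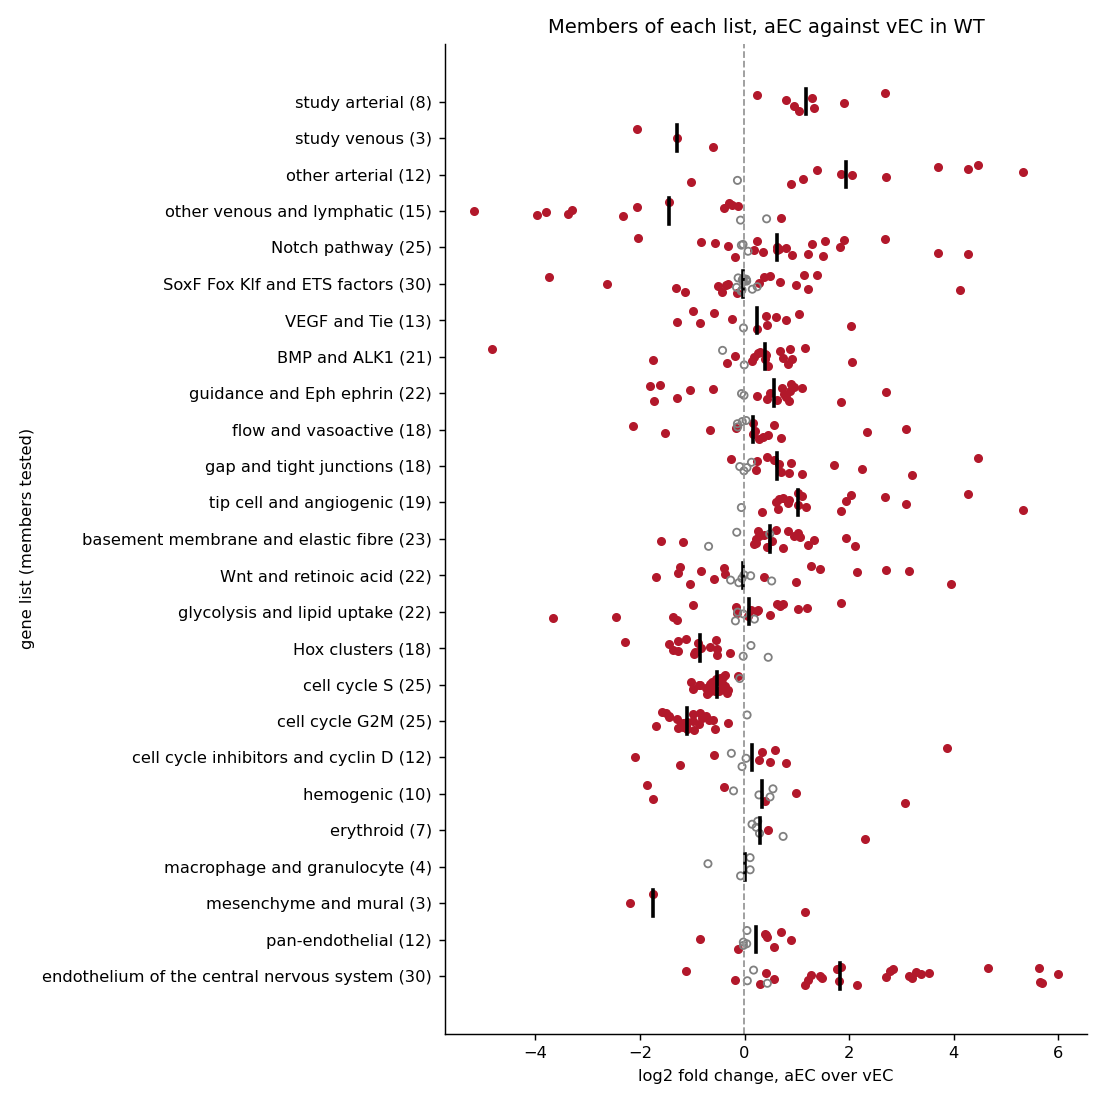
Log2 fold changes of the tested members of each list, aEC over vEC in WT. Filled red points passed the threshold, open points did not, black bars are list medians and the dashed line is the median of all genes tested (-0.01). Arterial, tip cell and central nervous system lists lie to the right, and venous, Hox, S and G2M lists to the left.

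Growth factor and angiogenic genes moved in several ways. The list of 20 tip cell and angiogenic genes had 19 tested and 18 called higher, 11 at least 2-fold, with a median of 1.02. Tip cells lead growing vessel sprouts. Esm1, a proteoglycan they secrete, was at 103, 55.9, 69.7, 110 and 65.4 CPM in aEC and 5.06, 3.26, 1.38, 6.37 and 3.90 in vEC (4.26, SE 0.11). Angpt2, the context-dependent Tie2 ligand, had a log2 fold change of 2.04 (SE 0.16) and Apln, the ligand of Aplnr, of 1.02 (SE 0.08). Adrenomedullin (Adm) was at 26.8 to 118 CPM against 2.58 to 23.0 (3.08, SE 0.16), and Ramp3, part of its receptor, at 79.7 to 110 against 17.1 to 19.7 (2.35, SE 0.08). Ligand and receptor part thus were both higher in aEC. Of 15 VEGF and Tie genes, 13 were tested, 7 higher and 5 lower, with a median of 0.24. Tek, the Tie2 receptor, was lower (-0.85, SE 0.06) and its relative Tie1 higher (0.43, SE 0.05), though Tie1 was -0.14 against vEC_4 alone.

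Bone morphogenetic proteins (BMPs) act on endothelium through ALK1 (Acvrl1) and the Id genes. Of 28 genes of this list 21 were tested, with 15 called higher, 4 lower and a median of 0.39. Bmp4 was at 0.604 to 1.91 CPM in aEC and 22.7 to 53.5 in vEC (-4.83, SE 0.19), and the sides lay far apart. Its relative Bmp2 went the other way (1.16, SE 0.15), as did Acvrl1 (0.87, SE 0.06). The targets divided as well. Id1 was at 172 to 395 CPM in aEC and 125 to 189 in vEC (0.92, SE 0.09), with WT 3 alone nearly level, whereas Id2 was at 24.4 to 43.7 against 106 to 139 (-1.75, SE 0.09).

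Guidance receptors, junctions and matrix were more often higher. Of 22 guidance and ephrin genes tested 14 were called higher and 6 lower (median 0.56), and the netrin receptor Unc5b was at 19.9 to 52.5 CPM against 6.51 to 10.5 (1.84, SE 0.13). Of 18 junction genes 13 were higher and 1 lower (median 0.61). N-cadherin (Cdh2), which binds endothelium to mural cells, was at 358 to 554 CPM against 80.1 to 126 (2.24, SE 0.05), and T-cadherin (Cdh13) had a value of 3.19 (SE 0.18). Claudin 5 (Cldn5) was at 809 to 1188 CPM against 623 to 702 (0.56, SE 0.04). VE-cadherin itself (Cdh5) was level at 332 to 386 and 325 to 373 CPM (0.05, SE 0.04, adjusted p = 0.355), while Pecam1, the gene of the sort marker CD31, was higher by 0.70 (SE 0.05). Of 23 basement membrane and elastic fibre genes 18 were higher and 2 lower (median 0.48), with Sparcl1 at 2.11 (SE 0.07), Nid2 at 1.93 (SE 0.07), Fn1 at 1.32 (SE 0.05) and fibrillin 1 (Fbn1) at -1.59 (SE 0.24). Of 18 flow and vasoactive genes 10 were higher and 4 lower, with a median of 0.15.

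Several of the largest rises belonged to genes known from vessels of the central nervous system. Apod (5.68, SE 0.18), Spock2 (5.64, SE 0.16) and Mfsd2a (5.63, SE 0.21) were such genes. Among abundant genes Igfbp7, a secreted binding protein of vessel walls, rose most, from 1.60 to 5.98 CPM in vEC to 93.4 to 247 in aEC (5.74, SE 0.10). Mfsd2a, the lipid transporter of the blood-brain barrier, was at 17.5, 19.4, 14.3, 10.3 and 9.48 CPM in aEC and at 0.432, 0.254, 0.291, 0.240 and 0.118 in vEC. A list of 35 genes of this endothelium was drawn up after these values had been seen, so its count is a description and carries no test. Of 30 tested, 25 were called higher, 22 of them at least 2-fold, and 2 lower, with a median of 1.83. The glucose transporter Slc2a1 was at 634, 679, 459, 619 and 494 CPM in aEC and 156, 167, 139, 184 and 155 in vEC (1.85, SE 0.05). The amino acid transporter pair Slc7a5 (2.84, SE 0.07) and Slc3a2 (1.76, SE 0.06), the transferrin receptor Tfrc (2.78, SE 0.10), the efflux pump Abcb1a (3.28, SE 0.22) and the thyroid hormone carrier Slco1c1 (4.65, SE 0.37) had the same direction. The monocarboxylate carrier Slc16a1 had the opposite one (-1.11, SE 0.13).

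Wnt signals drive the growth of brain vessels, and some genes of this pathway were among the higher genes. Nkd1, a feedback inhibitor, was at 140, 153, 195, 126 and 113 CPM in aEC and 18.7, 19.1, 30.5, 22.4 and 21.1 in vEC (2.70, SE 0.08). Apcdd1 (3.14, SE 0.27), the receptor Fzd6 (2.14, SE 0.13), Axin2 (1.44, SE 0.14) and Lef1 (1.28, SE 0.06) were higher as well. As a whole, the list of Wnt and retinoic acid genes had no common direction. Of 22 tested, 8 were higher, 6 of them at least 2-fold, and 8 lower, 4 of them at least 2-fold. The median was -0.03, so the higher genes named above do not stand for the list. On its retinoic acid side Stra6, a receptor that takes up vitamin A, was at 46.0 to 101 CPM against 4.06 to 7.94 (3.94, SE 0.13), and the receptor Rarb was lower (-1.70, SE 0.17).

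Hox genes, which record position along the body axis, were lower in aEC. Of 37 genes in the clusters 18 were tested, and 15 were called lower, 6 of them at least 2-fold, and none higher, with a median of -0.86. Hoxa5 was at 13.3, 8.24, 6.68, 14.2 and 8.54 CPM in aEC and 59.9, 60.8, 49.5, 49.6 and 57.8 in vEC (-2.28, SE 0.12). Hoxa9 (-1.44, SE 0.14), Hoxb5 (-1.38, SE 0.15) and Hoxa4 (-1.28, SE 0.16) had the same direction. The summed level of all 37 was 132 to 177 CPM in aEC and 290 to 310 in vEC. Hox RNA was thus present on both sides, at a lower level in aEC. The dissected block can hold vessels of several positions, and from which vessel a cell came was not measured.

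Genes of the cell cycle were lower in aEC. Of 25 S phase genes 24 were called lower and none higher (median -0.53), and of 25 G2M genes 24 were lower and none higher (median -1.10). Mki67, a marker of cycling cells, was at 57.7, 63.0, 54.4, 52.4 and 86.8 CPM in aEC and 190, 201, 191, 170 and 174 in vEC (-1.57, SE 0.08). WT 5 had the highest aEC value and the smallest difference. Top2a (-1.50, SE 0.08), the spindle motor Kif11 (-1.69, SE 0.09) and Rrm2 (-1.03, SE 0.10) moved alike, whereas Ccnb2 stayed level at 107 to 125 and 106 to 113 CPM (0.05, SE 0.06, adjusted p = 0.486). The cyclin-dependent kinase inhibitor Cdkn1a (p21) was at 189, 181, 243, 253 and 139 CPM in aEC and 11.9, 10.4, 10.6, 22.0 and 12.4 in vEC (3.87, SE 0.10). Of 12 inhibitors and D cyclins 6 were higher and 3 lower (median 0.15). Cyclins D1 (Ccnd1, -0.59, SE 0.06) and D2 (Ccnd2, -2.09, SE 0.11) were lower, but against vEC_4 alone Ccnd1 was higher (0.29). After thinning each cell to 5000 UMIs, the mean count of G2M UMIs was 8.47 to 12.8 per cell in aEC and 18.5 to 20.5 in vEC. Restricting both sides to cells below the median G2M count of their library left 5898 of 10672 genes called, of which 5541 were shared with the full comparison and 5539 had the same direction. The restriction kept 64.5% to 80.9% of aEC and 41.3% to 46.5% of vEC per library, so the sides were not matched in their cycling cells, and cell cycle genes cannot be read in it.

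Metabolic genes showed no common direction, with 11 of 22 glycolysis and lipid genes higher and 7 lower (median 0.09). The fatty acid binding protein Fabp5 was lower (-1.37, SE 0.07). Other large rises of abundant genes were those of the matrix genes Vwa1 (3.19, SE 0.06) and Ecm1 (2.37, SE 0.06), the polyamine enzyme Sat1 (2.31, SE 0.07) and of Car2 (2.30, SE 0.10), which also stood on the erythroid list. Among the largest falls were the adhesion protein Flrt2 (-2.63, SE 0.10), the serine synthesis enzyme Phgdh (-2.34, SE 0.11), Gap43 (-2.30, SE 0.10), the endocytic adaptor Dab2 (-2.06, SE 0.10), the imprinted gene Peg3 (-1.68, SE 0.09) and the DNA methyltransferase Dnmt3a (-1.59, SE 0.10).

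Genes of blood formation were sparse on both sides. Of 17 hemogenic genes 10 were tested, with 3 higher, 3 lower and 4 not called. Meis1, the gene deleted in the other genotype of the study, was at 1.21, 0.883, 0.955, 1.496 and 1.42 CPM in aEC and 4.40, 5.29, 4.59, 4.12 and 5.74 in vEC (-1.87, SE 0.26, adjusted p = 1.40e-06), from 21 UMIs over all aEC. Its level was thus lower in aEC in 5 of 5 libraries with no overlap. Runx1, the master factor of the transition, had 18 UMIs in aEC and 153 in vEC, and Gfi1 1 and 14, and neither was tested. These are raw counts summed over 888 aEC and 5404 vEC, so they show no direction. Cd27, a receptor later used to mark blood progenitors, was at 6.65, 5.00, 9.55, 8.23 and 2.85 CPM against 0.746, 0.423, 0.874, 0.960 and 0.828 (3.07, SE 0.24), and Itga2b, which encodes CD41, was at 8.53 to 15.3 against 3.77 to 7.07 (0.99, SE 0.16).

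Within the pooled vEC, the cluster vEC_1 lay nearest to aEC. The cluster levels are given as descriptions, since the same counts drew the clusters. Of the 587 genes higher by at least 2-fold in aEC, vEC_1 had the level nearest to aEC for 435 (74.1%) and vEC_4 for 139, and the median log2 difference from aEC to vEC_1, vEC_2, vEC_3 and vEC_4 was 0.92, 1.42, 1.77 and 1.63. For 161 of these genes the level fell at each step from aEC through vEC_1 to vEC_4. Of the 515 lower genes, vEC_1 was nearest for 272 (52.8%) and vEC_4 for 198. Set against vEC_1 alone, 5036 of 10239 genes were called but only 400 at least 2-fold, compared with 1025, 1313 and 928 against vEC_2, vEC_3 and vEC_4. The pooled side therefore averages over clusters that differ in their distance from aEC.

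Named genes show this gradation. On the scale of the cluster sums, Dll4 averaged 46.6 ± 11.5 CPM (SD, n = 5 libraries) in aEC and 15.9 ± 3.53, 6.95 ± 2.10, 1.58 ± 0.686 and 2.40 ± 1.97 in vEC_1 to vEC_4. Foxq1 fell from 160 ± 20.6 in aEC to 42.3 ± 6.15 in vEC_1 and to 0.583 ± 0.328 in vEC_3, and Nr2f2 climbed from 37.8 ± 6.83 through 94.2 ± 17.2 in vEC_1 to 269 ± 29.0 in vEC_4. The lymphatic genes Prox1 and Lyve1 were highest in vEC_4, at 95.9 ± 34.1 and 81.4 ± 17.95, and Prox1 was not called against vEC_1 alone (-0.45, adjusted p = 0.290). Not every gene followed the order. Edn1 averaged 37.7 ± 25.2 in aEC, 13.7 ± 7.16 in vEC_1 and 198 ± 119 in vEC_4, so that its level call against pooled vEC stood for a rise against vEC_1 (1.57) and a fall against vEC_4 (-2.43). Vwf likewise averaged 22.7 ± 16.7 in aEC, 4.98 ± 2.45 in vEC_1 and 69.9 ± 17.7 in vEC_4. For the cell cycle, Mki67 averaged 62.4 ± 13.6 in aEC and 87.2 ± 11.8 in vEC_4, both below the 135 ± 12.5 to 235 ± 14.7 of the other vEC clusters.

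**Figure D3:**
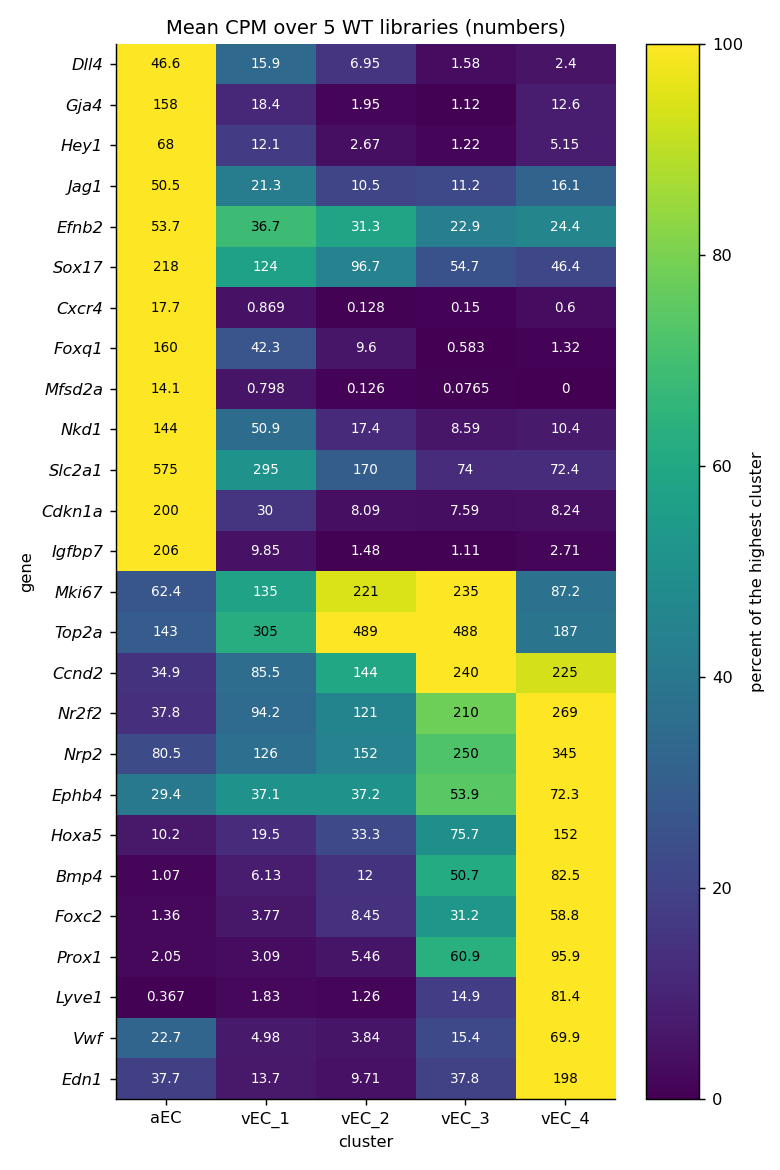
Mean CPM over the 5 WT libraries of 26 genes (rows) in aEC and vEC_1 to vEC_4 (columns). Numbers are means and colours give the percent of the highest cluster of each gene. Most arterial genes fall from aEC to vEC_1 and further, Nr2f2 and Hoxa5 climb from 37.8 and 10.2 in aEC to 269 and 152 in vEC_4, and Edn1 and Vwf are highest in vEC_4.

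Shares of single cells were compared at a common depth. Each cell was thinned to 5000 UMIs, and the share of cells with at least 1 UMI of a gene was averaged over 5 libraries. Gja4 was found in 24.5% ± 8.67 (SD) of aEC and 2.07% ± 1.04 of vEC, against 0.283% of Myeloid cells, which should lack it. Hey1 was found in 24.0% ± 6.82 and 2.39% ± 1.03, with 0.296% in Myeloid cells, and Dll4 in 19.1% ± 6.33 and 3.82% ± 1.12, with none in Myeloid cells. Sox17 was found in 59.7% ± 6.14 and 29.5% ± 3.58. The vEC shares of these arterial genes lay above the Myeloid shares. In the other direction, Nr2f2 was found in 12.9% ± 5.00 of aEC and 48.3% ± 5.32 of vEC, and Nrp2 in 29.3% ± 2.59 and 56.1% ± 2.74. Each of these differences had the same sign in 5 of 5 libraries, and by exact permutation of signs over libraries each had p = 0.0625 (two-sided), the smallest that 5 libraries can give. The clusters were drawn on the same RNA counts, so these shares and p-values are a description and no independent test. Other genes were less even over libraries. Gja5 was found in 0.793% of aEC and 0.197% of vEC and Hey2 in 0.900% and 0.128%, each higher in aEC in 3 of 5. The netrin receptor gene Unc5b (10.8% and 4.17%) and Notch1 (29.5% and 25.9%) were higher in 4 of 5, and Flt4, a receptor gene of the venous list, was lower in 4 of 5 (16.7% and 23.4%). Emcn, of the same list, was found in 95.2% of aEC and 94.9% of vEC. The share for Efnb2 was 19.2% ± 5.97 in aEC and 12.5% ± 1.30 in vEC, so that absence of a UMI at this depth cannot be read as absence of the gene.

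Arterial and venous genes were also scored together in single cells. Cells were scored for at least 1 UMI of Dll4, Gja5, Gja4, Hey1 or Efnb2 and for at least 1 UMI of Nr2f2, Ephb4, Nrp2 or Aplnr, after thinning. Both were found in 51.3%, 37.9%, 32.0%, 40.8% and 34.1% of aEC in WT 1 to 5, and in 16.7%, 17.4%, 11.9%, 19.2% and 17.0% of vEC. An arterial gene alone was found in 12.4% to 24.8% of aEC and 1.07% to 3.03% of vEC. A venous gene alone was found in 29.3%, 42.5%, 38.0%, 27.3% and 41.6% of aEC, more than an arterial gene alone in each library, and in 70.5% to 78.4% of vEC. The share with both was not compared with what the separate shares would give. Of the venous genes, Aplnr was found in 57.2% ± 10.99 of aEC and 67.5% ± 7.89 of vEC. In Myeloid cells the shares were 2.45% for Aplnr, 4.12% for Nrp2 and 2.18% for Nr2f2.

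The aEC were not uniform. They were split, after the values had been seen, into cells with and without a Gja4 UMI at 5000 UMIs, which gave 32, 50, 8, 111 and 38 cells with one in WT 1 to 5. These values are a description with no test, and WT 3 rests on 8 cells. In cells with a Gja4 UMI, Hey1 averaged 118 CPM against 46.3 in the others, Efnb2 103 against 34.8, Mecom 122 against 37.5 and Vwf 44.3 against 16.03, each higher in 5 of 5 libraries. Mfsd2a (34.7 against 11.2), Slc2a1 (819 against 517) and Igfbp7 (273 against 179) were also higher in 5 of 5. Nrp2 (35.6 against 92.7), Aplnr (156 against 229), Sox9 (22.0 against 50.3) and Hoxa5 (4.57 against 12.2) were lower in 5 of 5 libraries. Hoxa5 rested on 9 UMIs in cells with Gja4 and 42 in the others, with 0 in cells with Gja4 of WT 3 and WT 5. Sox9 had 0 UMIs in cells with Gja4 of WT 2 and WT 3, and was nearly level in WT 5 (21.05 against 21.59). Foxq1, by contrast, averaged 171 and 162 CPM and was higher in 3 of 5, and the summed Hox level was 155 and 153.

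The aEC were also split by a Foxq1 UMI, again as a description with no test. There were 76, 80, 23, 129 and 100 cells with Foxq1. Cdkn1a averaged 253 CPM with and 146 without, Igfbp7 298 and 121, Slc7a5 134 and 76.2, Tfrc 146 and 83.8, Nkd1 179 and 126 and Lef1 147 and 106, each higher with Foxq1 in 5 of 5 libraries. Slc2a1 (639 and 567) and Mfsd2a (21.7 and 12.7) were higher in 4 of 5. Efnb2 was lower in 5 of 5 (44.7 and 58.8), and Gja4 was higher in 2 and lower in 3 (148 and 185).

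**Figure D4:**
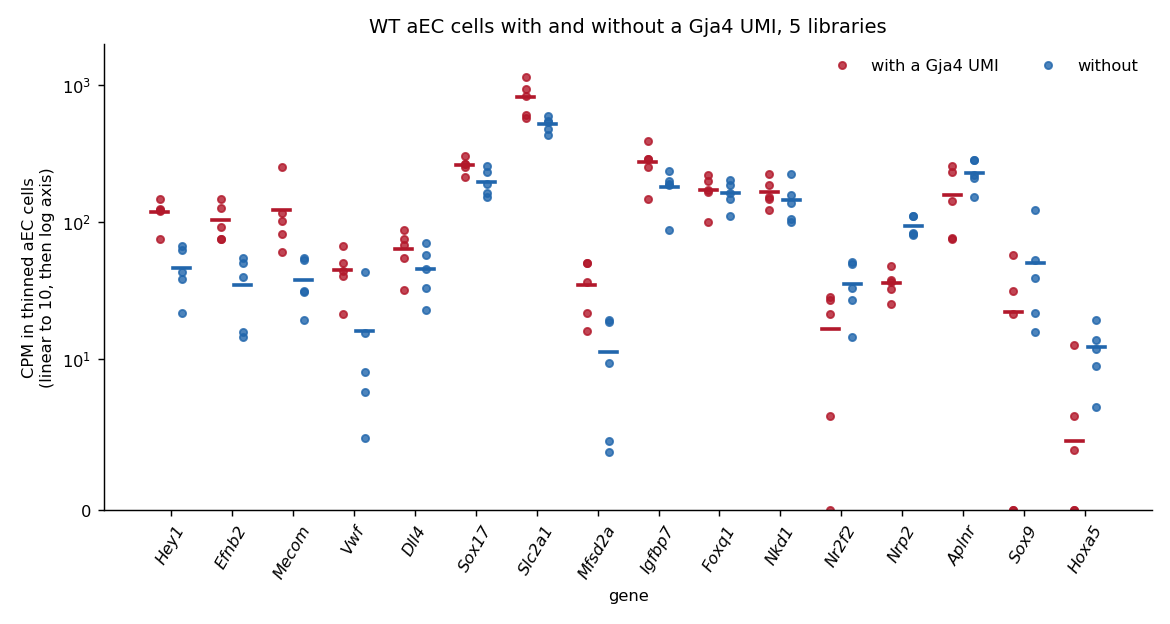
CPM of 16 genes in WT aEC with (red) and without (blue) a Gja4 UMI after thinning to 5000 UMIs per cell. The vertical axis is linear to 10 and logarithmic above, points are the 5 libraries and bars are means. Hey1, Efnb2, Mecom and Vwf are higher and Nrp2, Aplnr, Sox9 and Hoxa5 lower in cells with Gja4 in each library, and Foxq1 shows no steady direction. In cells with Gja4, Hoxa5 rests on 9 UMIs and Sox9 on 41.

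The antibody tags took no part in the clustering and are thus independent of the choice of cells. Tag counts were present in 4 WT libraries, since those of WT 4 summed to 0. In mean counts per cell, all 5 tags measured in these libraries were lower in aEC in 4 of 4. Median counts were equal on both sides for CD41 in WT 3 (4) and WT 5 (1) and for CD27 in WT 3 (11). The mean log2 ratio of aEC over vEC was -0.12 ± 0.08 (SD) for CD117, -0.47 ± 0.55 for CD41 (-0.19 ± 0.06 without WT 5), -0.28 ± 0.03 for CD43, -0.36 ± 0.14 for CD45.2 and -0.17 ± 0.07 for CD27. By exact permutation of signs, each had the smallest p that 4 libraries can give, before and after Benjamini-Hochberg adjustment over the 5 tags, and this lies above 0.1, so the design cannot pass the threshold. How these levels stood to those of blood cells depended on the tag. In WT 1, CD43 averaged 36.3 counts per aEC and 43.6 per vEC, against 511 in cells undergoing the endothelial-to-hematopoietic transition (EHT), and CD45.2 averaged 46.6 and 59.8 against 922 in Myeloid cells. The CD45.2 level of EHT cells was closer, at 70.6 in WT 1, and in WT 5 it was 8.36, below the 9.32 of vEC. In WT 1 the Myeloid levels of CD117 (96.6) and CD27 (61.8) were also closer to those of aEC (47.9 and 23.5). The median RNA UMIs of aEC were lower than those of vEC in the same libraries, by log2 ratios of -0.36 to -0.27, and the part of this in the tag ratios was not tested. The CD44 tag was measured only in WT 5 of the WT libraries, at 5.37 counts in aEC and 5.68 in vEC.

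For CD27 and CD41, RNA scaled to depth and tag counts not scaled to depth differed in direction. Cd27 RNA and Itga2b RNA (CD41) were higher in aEC, and the CD27 and CD41 tags were lower in mean count per cell. When each tag was instead centred on the mean log count of all tags of its cell, the difference turned to 0.06 for both CD27 and CD117, each higher in aEC in 4 of 4 libraries, and to 0.02 for CD41, higher in 2 of 4. That of CD43 was -0.03, higher in 1 of 4, and only CD45.2 was still lower in 4 of 4 (-0.11) among these 5 tags. The direction of CD27, CD117 and CD41 thus depends on the scale.

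The same contrast was measured in the 3 Meis1-flox/VE-Cre libraries, with 624 aEC and 4013 vEC, and 4871 of 10807 genes (45.1%) were called there. Of 105 genes followed through both genotypes, 104 had the same sign, and all 101 called in WT had the same sign in Meis1-flox/VE-Cre, 100 of them called there too. The clusters of both genotypes were named together from this RNA, and many of these genes were chosen for large, steady changes in WT. The shared signs are therefore a description and no independent test. The log2 fold change of Gja4 was 4.45 (SE 0.13) in WT and 4.27 (SE 0.11) in Meis1-flox/VE-Cre, that of Nr2f2 -2.06 (SE 0.06) and -1.84 (SE 0.08), that of Foxq1 3.53 (SE 0.07) and 3.57 (SE 0.10) and that of Hoxa5 -2.28 (SE 0.12) and -1.96 (SE 0.15). The G2M list had a median of -1.10 in WT and -0.67 in Meis1-flox/VE-Cre. The difference between these medians was not tested, and the libraries of the genotypes differ in depth.

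The difference of the contrast between genotypes was then tested for each gene as an interaction. By edgeR's quasi-likelihood test 0 of 11886 genes passed an adjusted p under 0.1, and 603 (5.07%) had an unadjusted p under 0.05. DESeq2 likewise gave 0, with 261 at an unadjusted p under 0.05. Of the 105 genes followed, 17 had an unadjusted p under 0.05 by the edgeR test, a larger share than over all genes. Many of these genes were chosen for large, steady changes in the same WT libraries that enter the interaction. The larger share is therefore a description and no sign of a genotype effect. The lowest adjusted p among the 105 genes was 0.663. Among the genes named here, Tfrc differed most by unadjusted p (difference -0.68 on the log2 scale), and its contrast was 2.78 in WT and 2.13 (SE 0.12) in Meis1-flox/VE-Cre. Top2a followed with a difference of 0.45. Without WT 5, 24 genes passed, 19 of them higher, and 8 of the 24 were in the cell cycle lists, and without WT 4, 1 passed. The genotypes also differ in depth, as 4 of the 5 WT libraries are deeper than every Meis1-flox/VE-Cre library, and with WT 5 as the only WT library 2 genes passed. A gene that did not pass is not shown to be alike in both genotypes.

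**Figure D5:**
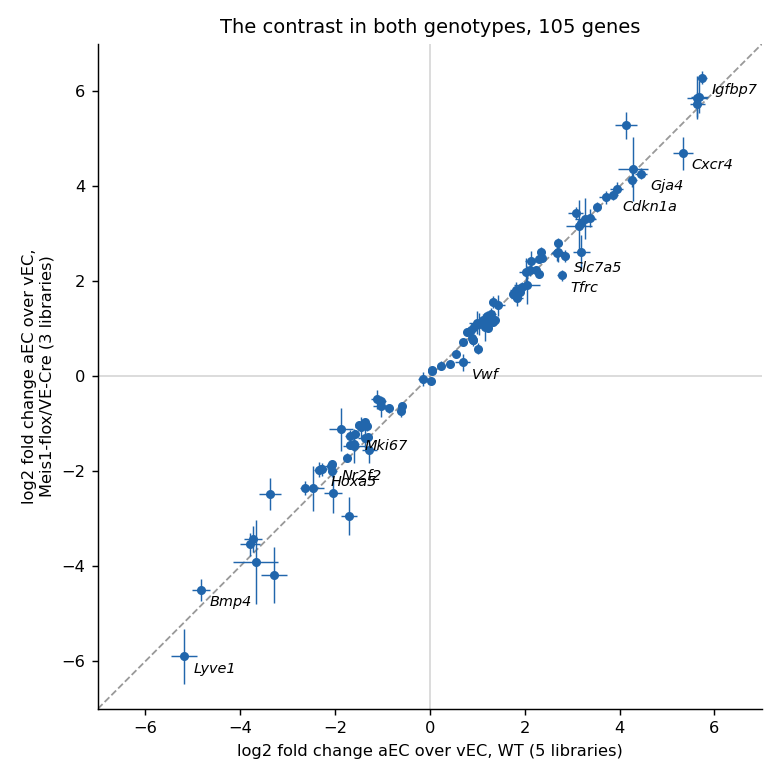
Log2 fold change of aEC over vEC in WT (horizontal, 5 libraries) and in Meis1-flox/VE-Cre (vertical, 3 libraries) for 105 named genes, with bars of 1 standard error. The dashed line marks equal values. The points lie along the line from Bmp4 and Lyve1 at the lower left to Igfbp7 at the upper right, and 104 of 105 have the same sign. The clusters of both genotypes were named together from the same RNA, so the shared signs are a description.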

How the data were processed

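The authors sorted CD31+ cells, made 10X 3′ v3 libraries with antibody tags and counted UMIs; the submitters' processing notes name Cell Ranger 3.0.2 and mm10, and the annotation used is not given in the sources used here. The authors deposited raw UMI counts per gene and tag, after they had kept cells with over 2000 genes and under 10% mitochondrial content. Their deposited table of other values gave each cell's library, genotype and cluster, the clusters having been named after integration of both genotypes. The study states that several litters were analysed, and the labels do not tie a library to a litter.

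Counts were summed per library and side and compared by the two-sided quasi-likelihood F test of edgeR 4.0.16 (R 4.3.3), after filterByExpr and TMM normalization, with the library as block. Both sides of a library share embryos, and their deviations correlated by 0.412, 0.414, 0.311, 0.559 and 0.607 over genes. CPM of tested genes use these factors. CPM of genes not tested, of the clusters and of Meis1-flox/VE-Cre were scaled over all sums of their own table, so aEC levels differ slightly between tables. Ratios in single libraries used log2(CPM + 0.5). The genotype comparison added an interaction to the block. In a simulation that shifted 200 genes by a log2 value of 1, the test found 92% of them for aEC against vEC (11345 genes), with 13.2% of calls false, and 71.5% for the genotype difference (11886 genes), with 10.1% false. The simulated counts held no library effect, unlike the data. In the data 59.7% of genes were called for aEC against vEC, far more than were shifted. The simulated rates therefore need not hold for the data. Cells were thinned to 5000 UMIs for shares, and doublets were scored with Scrublet through scanpy 1.11.5 but kept. UMIs count molecules, and p-values weigh the difference between the sides of a library against the spread of that difference over pools.

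Named genes were, per list, up to 5 called members with the largest change and the same sign in 5 of 5 libraries and up to 2 that were not called, all members of the study's lists, and up to 12 rises and 12 falls among called genes whose mean log2 CPM was 5 or more and whose sides did not overlap, without sex-linked, Gm, Rik and ribosomal genes. Some genes that the rule names are not reported here. The members and lists were chosen with earlier results of these data known. Promoters were matched by symbol to RefSeq on GRCm38.p6, and Hey1 and Hes1 had none in the table. Alternatives were other normalization (RLE), DESeq2 1.42.0, no filter, no block, thinned cells, equal numbers of cells, each vEC cluster alone, clusters with equal weight, no doublets and each library left out.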

Additional observations from a re-analysis of the deposited data

Results flagged for a closer look

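In each of the cases that follow, 1 library stood apart from the others of its group by Dixon's 95% criterion, applied to the log2 ratio of aEC over vEC in each library. Of 108 genes followed, 5 were marked, and chance marks about 1 in 20 groups. The ratio of Gja4 was 5.36 in WT 2 and 3.93 to 4.25 in the others. That of Esm1 was 5.22 in WT 3 and 3.90 to 4.21 elsewhere, and that of Edn1 was -0.97 in WT 1 and -0.13 to 0.14 elsewhere. WT 5, the shallowest WT library, stood apart for Mki67 (-0.996, others -1.80 to -1.67) and for Cd27 (1.33, others 2.52 to 2.87). The CD41 tag was at -1.29 in WT 5 and -0.25 to -0.14 in the other libraries. In WT 5 the CD41 tag averaged 8.12 counts in vEC_1, 2.39 in vEC_2 and 1.86 in aEC, while its median was 1 in both aEC and pooled vEC. The causes were not tested.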

How the results depend on the processing

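Of 108 genes followed, 104 were called, and 98 of these passed the threshold in the same direction in all 18 alternatives that could be run. Over 1900 comparisons of a gene with an alternative, 1866 kept direction and side of the threshold, 17 reversed, 11 gained and 6 lost a call. The library as a block follows the pairing of the sides, and without it 5261 genes were called, 5256 of them shared. Thinning to 5000 UMIs gave 4145 of 9079 genes, Bonferroni adjustment 2515, and at least 2-fold 1102, and leaving out each WT library in turn 5993 to 6633. For the genotype difference, no filter gave 19 genes, WT 5 as the only WT library 2, and leaving out 1 library 0 to 24.

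Reversed values belonged to genes with small differences, apart from Edn1, Vwf, Klf2 and the called genes Tie1 and Ccnd1. Edn1 and Vwf are high in vEC_4, and Klf2 was called in both directions against single vEC clusters. Edn1 was 0.17 with clusters of equal weight, 1.57 against vEC_1, 2.03 against vEC_2, 0.0106 against vEC_3 and 0.0330 without WT 1, and from -0.236 to 0.0330 over the libraries left out. Klf2 was called at 0.38 against vEC_1, 0.29 against vEC_2, -0.21 against vEC_3 and -0.47 against vEC_4. It was -0.00955 without a filter, -0.0375 with equal weight and -0.00250 without WT 2, and from there to 0.0952 over the libraries left out. Against vEC_4, Vwf was -1.51, Tie1 -0.14, Cdh5 -0.21 and Ccnd1 0.29. Cdh5 was -0.000156 with equal weight, and Ccnb2 was -0.21 against vEC_1 and -0.0672 in cells with few G2M UMIs. Calls were lost for Notch1 against vEC_4 (edgeR adjusted p = 0.167), Vegfc against vEC_4 (0.288), Prox1 against vEC_1 (0.290) and Vwf by DESeq2 (0.324). In shares of cells, Hey2 turned to -0.0347 percentage points at 2 UMIs or more, Notch1 to -4.49 without thinning, and Emcn to -0.747 without WT 3 (range over libraries left out to 0.659), -1.63 at 3000 UMIs and -2.28 at 2 UMIs or more. Centred on the other tags, CD117 was 0.0591, CD41 0.0197 and CD27 0.0561. Over the 7 libraries of both genotypes with tags, mean log2 ratios were -0.14 for CD117, -0.43 for CD41, -0.21 for CD43, -0.49 for CD45.2 and -0.26 for CD27. For these tags exact sign-flip permutation gave p of 0.0156 to 0.0469, or 0.031 to 0.056 after Benjamini-Hochberg adjustment. CD117 and CD41 were each higher in aEC in 1 of 7 libraries. These counts were not scaled to depth, and the log2 ratios of median RNA UMIs in the same libraries were -0.44 to -0.27. Causes were not tested. A restriction to cells with no G2M UMI could not be run, since only WT 1 and WT 4 had 10 such cells on both sides. Cells below the median G2M count were used instead, an alternative chosen after seeing the data. Depth limits Gja5, Runx1 and Gfi1, and aEC of WT 3 rest on 51 cells.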
